A study of Mus musculus with 32 samples.

Results

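Tbx5, Tbx4, Pitx1 and Isl1, the transcription factor genes that distinguish the mouse forelimb bud from the hindlimb bud, were examined in 32 lists of ATAC-seq summits, the positions where a peak of open chromatin was highest. A summit belonged to a gene when it lay in the gene body or within 150 kb of it and the nearest protein-coding start in GENCODE (mm10) was that of the gene. Summits of different libraries were merged into regions of radius 250 bp, and a region was kept when at least 2 of the 32 lists held it. This gave 90 regions of the 4 genes among 116980 in the whole series, with 10 at Tbx5, 32 at Tbx4, 23 at Pitx1 and 25 at Isl1, and another 33 regions of these genes were held by 1 list each and left out. A region is named here by its gene and by its signed distance in kb from the most upstream coding start, so that Tbx4 +31.6 lies 31.6 kb downstream of the start of Tbx4. In mm10 the genes lie at chr5:119832668-119885219 (Tbx5, plus strand), chr11:85886422-85916097 (Tbx4, plus strand), chr13:55825051-55836192 (Pitx1, minus strand) and chr13:116298281-116309689 (Isl1, minus strand).

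TBX5 is a T-box factor needed for the forelimb bud to form, and TBX4 is its close relative of the hindlimb. PITX1 is a paired-type homeodomain factor of the hindlimb that acts upstream of Tbx4 and gives the hindlimb its form. ISL1 is a LIM-homeodomain factor of the hindlimb-forming mesoderm that is needed before hindlimb outgrowth starts, and it also marks motor neurons and cardiac progenitors. Open chromatin at a promoter or a distal element often goes with regulatory activity, but ATAC-seq measures neither transcription nor the factor that is bound.

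The comparison of limbs used E10.5 FL EYFP+ (forelimb, 3 libraries) and E10.5 HL EYFP+ (hindlimb, 3 libraries) cells. These were sorted as CD31-, TIE2- and CD45- cells that carried EYFP from the Etv2-EYFP transgene, whose reporter is driven by an upstream fragment of Etv2. The numbers 748, 753 and 758 occur in both limbs and are called pools here, since limb buds could be pooled before sorting. Mesodermal deletion of Etv2, an ETS factor best known for making endothelium and blood, was represented by E10.25 CKO (5 libraries) and E10.5 CKO (2 libraries, labelled posterior hindlimb). Per the study's methods these embryos carry HoxB6-Cre with Etv2 fl/-, and this Cre acts in posterior lateral plate and limb mesoderm. Per the study both knockout groups and E10.25 WT (2 libraries) are posterior hindlimb cells, although the E10.25 labels name neither hindlimb nor part. Etv2OE (overexpression) embryos carry HoxB6-Cre, a doxycycline-inducible HA-tagged Etv2 and ROSA26-STOP-rtTA-IRES-EGFP, and gave 3 libraries from each of 2 parts, taken as anterior and posterior from the letters A and P in the sample descriptions, on which every anterior or posterior value of this experiment rests. Control embryos were littermates that lacked a transgene of that set, and they gave 4 anterior and 4 posterior libraries. The labels put these 14 libraries at E10.5, while the methods describe harvest a day after the last dose of doxycycline, so their stage is uncertain. E9.5 HL (wild-type hindlimb), E10.5 Posterior (EGFP+ cells of the posterior hindlimb of Shh-EGFP embryos) and E10.5 Anterior (anterior hindlimb cells of Shh-EGFP embryos) had 1 library each. Per the study, wild-type and knockout samples were made from hindlimbs of several embryos, and embryos of the overexpression experiment were analysed singly. An anterior and a posterior library with the same number were taken as parts of 1 embryo. The p-values measure the spread between these libraries, which may in part be technical.

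The lists held 13763 to 54676 summits, the read depth behind them is unknown, and a summit that is missing was not called and may still be open. At the gene Etv2 itself, 0 of the 7 CKO lists had a summit in the gene or within 500 bp of it, against 2 of 2 E10.25 WT lists and 1 of 3 in each EYFP+ group. It was 2 of 4 in anterior controls, 3 of 4 in posterior controls and 2 of 3 in each part of Etv2OE. E9.5 HL and E10.5 Posterior had such a summit and E10.5 Anterior did not. These are whole lists of unequal length, so the counts do not test the deletion. A fixed set of 9 limb mesenchyme genes had a summit at 6 to 9 of their promoters in every list except E10.5 Anterior, the shortest list, which had 1. Of 7 endothelial genes 1 to 3 promoters were listed in each library, with Kdr in 32 lists, Sox17 in 20, Tal1 in 9, Tek in 4, Erg in 3 and Cdh5 and Pecam1 in 0, and of 5 blood genes 0 to 2. Of 6 limb ectoderm genes 1 to 3 promoters were listed in E10.5 FL EYFP+ and 0 to 1 in E10.5 HL EYFP+. The count was 5 in E10.5 Posterior, 0 to 4 in E10.25 CKO and 1 to 3 in posterior controls. Of 5 muscle progenitor genes 1 to 3 were listed, with Met in 32 lists, Pax3 in 13, Myf5 in 6, Pax7 in 3 and Lbx1 in 0. Of 3 neural crest and glia genes 0 to 2 were listed. The part of such cells in the results below was not tested. No pair of libraries shared more than 5.08% of its exact summit positions, and none was treated as a duplicate.

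The 7 regions that carry the results are shown as 200 bp around the region centre, on the plus strand of mm10. They are a region upstream of Tbx5 chosen for being in at least 2 forelimb and no hindlimb lists, the best-ranked distal region of Tbx4, a downstream Tbx4 region that passed the test in 2 of the 6 comparisons, a downstream Tbx4 region listed in hindlimb only, the best-ranked region upstream of Pitx1, the Isl1 region that passed the test at E10.25 and an Isl1 region that E10.5 CKO did not list. Capitals mark matches on either strand to 9 short motifs. Those of homeodomain type were TAATCC for PITX factors, TAATGG for ISL1-type factors, TAATTA for other LIM-homeobox factors and TTTATGG for posterior HOX factors. The T-box motif was AGGTGT. The ETS motifs were AGGAAG and AGGAAA. The GATA motif was GATAAG and the E-box was CAGCTG.
Tbx5 -39.1, chr5:119795496-119795695: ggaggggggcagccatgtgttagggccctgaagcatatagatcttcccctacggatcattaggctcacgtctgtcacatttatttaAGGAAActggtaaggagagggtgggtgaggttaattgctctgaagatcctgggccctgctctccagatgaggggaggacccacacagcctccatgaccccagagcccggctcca
Tbx4 upstream element, chr11:85876371-85876570: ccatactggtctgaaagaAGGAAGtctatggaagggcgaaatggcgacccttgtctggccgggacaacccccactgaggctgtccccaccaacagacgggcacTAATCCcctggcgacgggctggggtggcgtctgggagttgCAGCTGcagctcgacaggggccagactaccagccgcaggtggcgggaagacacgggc
Tbx4 +31.6, chr11:85917970-85918169: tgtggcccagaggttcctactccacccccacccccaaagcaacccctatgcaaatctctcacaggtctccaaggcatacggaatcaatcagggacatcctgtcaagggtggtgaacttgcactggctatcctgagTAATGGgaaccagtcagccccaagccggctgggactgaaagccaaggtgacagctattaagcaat
Tbx4 +103.8, chr11:85990077-85990276: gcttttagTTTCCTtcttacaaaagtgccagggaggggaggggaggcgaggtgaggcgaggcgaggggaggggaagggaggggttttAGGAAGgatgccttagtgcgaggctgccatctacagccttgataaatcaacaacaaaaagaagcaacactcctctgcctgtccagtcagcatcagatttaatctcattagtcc
Pitx1 -92.3, chr13:55923598-55923797: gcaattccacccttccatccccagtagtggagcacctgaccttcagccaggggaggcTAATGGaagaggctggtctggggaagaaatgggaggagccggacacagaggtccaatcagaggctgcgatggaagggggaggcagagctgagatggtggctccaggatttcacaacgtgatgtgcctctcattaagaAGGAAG
Isl1 +15.7, chr13:116293920-116294119: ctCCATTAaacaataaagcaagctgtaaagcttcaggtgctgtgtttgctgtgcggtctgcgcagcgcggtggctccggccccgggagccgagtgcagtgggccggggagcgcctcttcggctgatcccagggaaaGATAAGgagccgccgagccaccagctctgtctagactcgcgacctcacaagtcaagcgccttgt
Isl1 +93.4, chr13:116216153-116216352: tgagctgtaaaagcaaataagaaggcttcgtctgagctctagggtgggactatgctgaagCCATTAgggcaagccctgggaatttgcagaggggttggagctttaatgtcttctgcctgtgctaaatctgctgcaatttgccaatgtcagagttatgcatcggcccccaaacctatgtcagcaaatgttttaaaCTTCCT

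TAATGG or its complement CCATTA stood in Tbx4 +31.6, Pitx1 -92.3, Isl1 +15.7 and Isl1 +93.4. Over all kept regions at the same length TAATGG was present in 8.08%, and it was present in 16 of the 90 regions of the 4 genes (17.8%), 9 of them at Tbx4. AGGAAG was present in 23.4% of all regions and 28.9% of those of the 4 genes, AGGAAA in 23.3% and 17.8%, and AGGTGT in 9.52% and 10%. For TAATCC the shares were 5.87% and 7.78%, for TAATTA 8.01% and 5.56%, for TTTATGG 4.72% and 3.33%, for GATAAG 4.37% and 6.67%, and for CAGCTG 15.8% and 20%. AGGAAG and AGGAAA share their first 5 letters and cannot start at the same base. A match is a description of the letters and not of binding.

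The genes had more regions than most, since the median over 17665 protein-coding genes with a region was 3. The regions were spread differently around each gene. At Tbx4 22 of 32 lay downstream of the gene, 4 in introns, 4 at promoters and 2 upstream. At Pitx1 19 of 23 lay upstream. Isl1 had 11 upstream, 9 downstream, 4 in introns and 1 at the promoter. Tbx5 had 5 downstream, 3 upstream and 2 in introns, and none at its promoter. The regions of the 4 genes were listed as widely as other regions, with a median of 6 lists in both cases, and 20 of 90 (22.2%) were in at least 16 lists against 23.7% of all. Within the set the median was 9 lists at Tbx4, 6 at Isl1, 5 at Pitx1 and 2.5 at Tbx5.

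**Figure D1:**
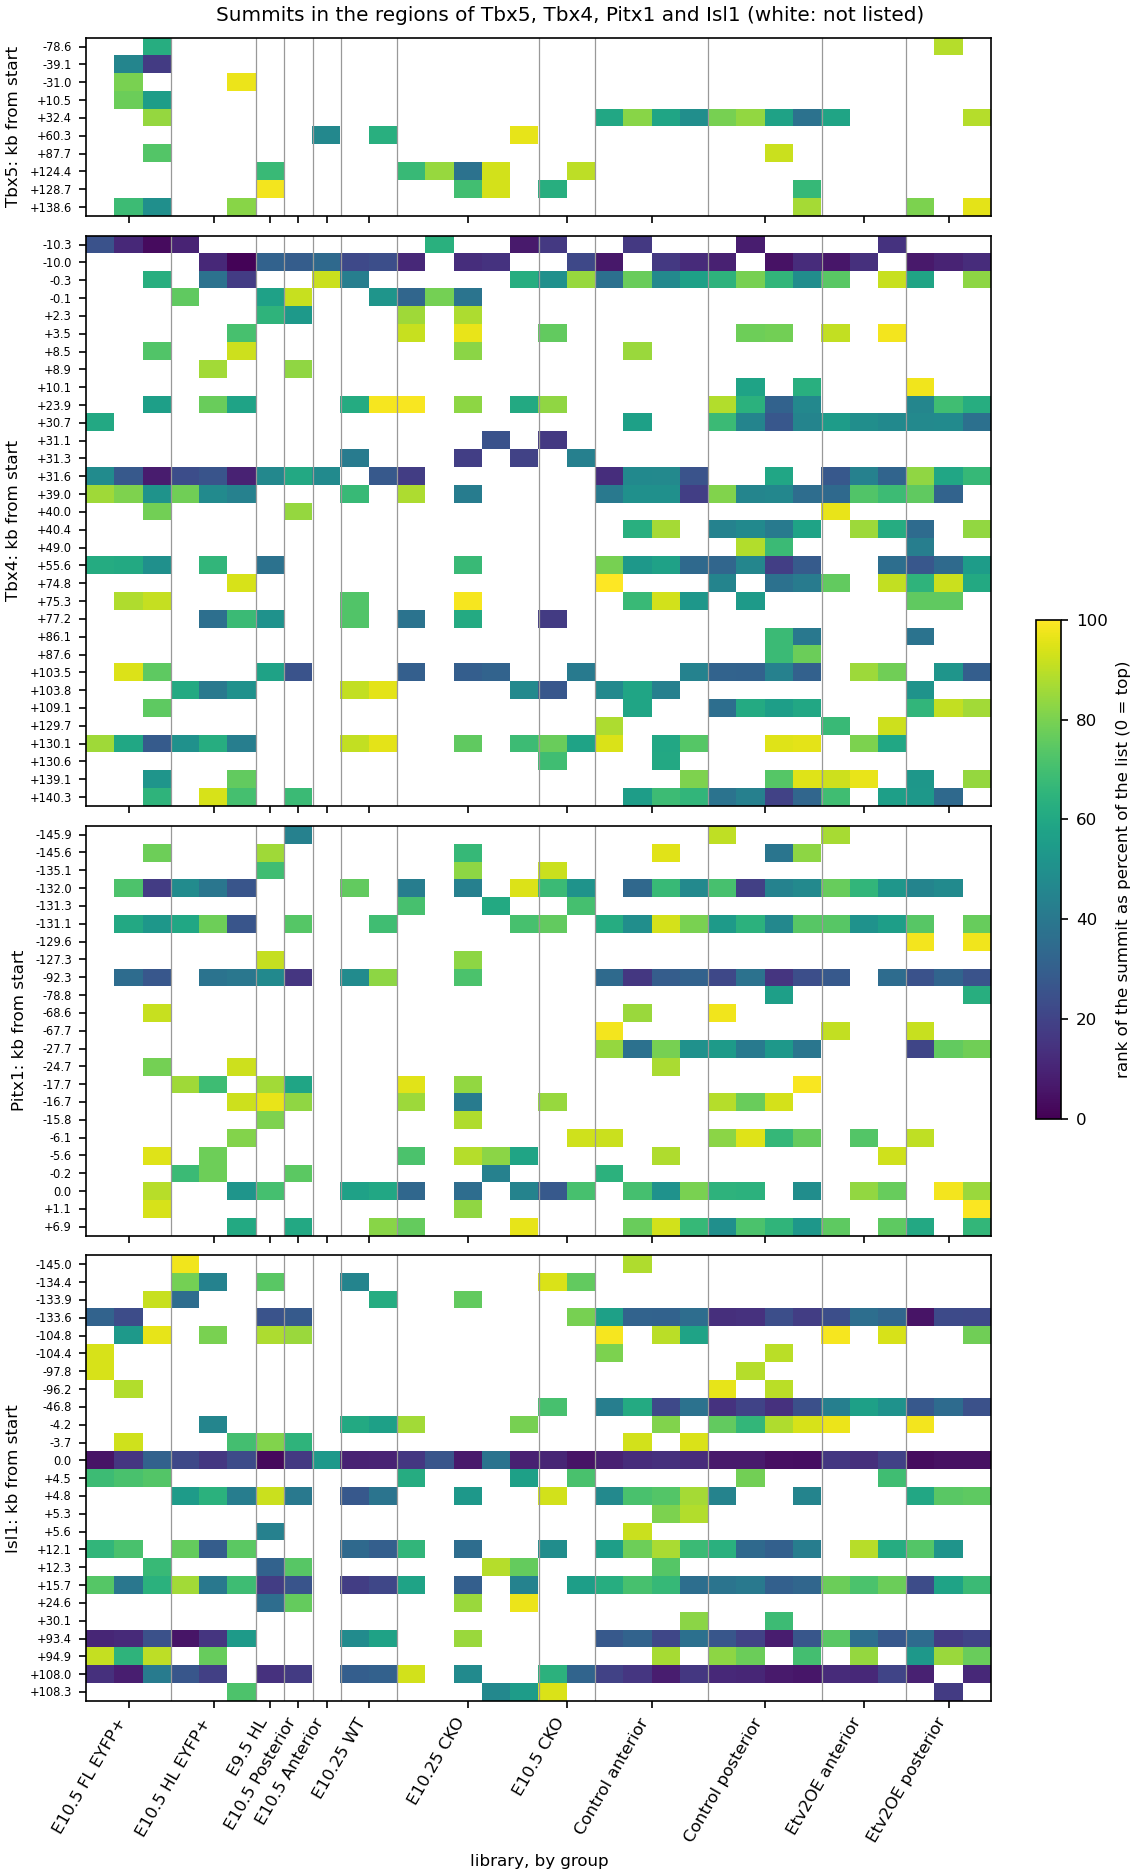
Each row is a region of Tbx5, Tbx4, Pitx1 or Isl1, named by its distance from the coding start in kb, and each column is a library, by group, with colour for the rank as a percentage of the list (0 is the top) and white where no summit was listed. The Isl1 start is filled in all 32 columns, most Tbx4 rows lie downstream and most Pitx1 rows upstream, and Tbx5 has no row at its start.

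The promoters ranged from always listed to never listed. The Isl1 start had a summit within 500 bp in 32 of 32 lists. Its relative rank, the position in the list as a percentage of the list's length with 0 as the strongest, ran from 2.45% in E9.5 HL to 53.7% in E10.5 Anterior. The first Tbx4 start had a summit in 27 of 32 lists and the Pitx1 start in 25 of 32. The 2 further Tbx4 starts, at Tbx4 +3.5 and Tbx4 +10.1, were listed in 8 and 3 libraries. The coding start of Tbx5 had none in any list, with the nearest summit 547 bp away, and neither had the 5' end of the gene. The E10.5 FL EYFP+ lists were no exception, although 2 of them held other regions of Tbx5.

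To ask which regions set forelimb apart from hindlimb, each list was cut to its 30000 highest summits, and a rank score was given to each region, from near 1 for the strongest summit to 0 for no summit. Over all 38864 regions tested, 1.42% were listed in every forelimb and no hindlimb library and 1.19% in every hindlimb and no forelimb library. Of the 25 regions of the 4 genes tested here, 0 were forelimb only and 2 were hindlimb only, Tbx4 +103.8 and Isl1 +4.8. In limma with Benjamini-Hochberg adjustment 0% of regions and 0% of the 14886 genes were called, while 1151 regions were higher in forelimb and 1183 in hindlimb at an unadjusted p under 0.05, and 299 and 308 genes. No value of this comparison passed the test, and the levels that follow describe 6 libraries.

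In whole lists, forelimb pools 753 and 758 held 4 and 6 regions of Tbx5, and hindlimb pools 748, 753 and 758 held 0, 0 and 2. Tbx5 -39.1 was listed at rank 21007 in pool 753 and 8478 in pool 758 of E10.5 FL EYFP+, and in none of the 29 lists outside that group. An intronic region of Tbx5 was listed at ranks 35698 and 26907 in the same libraries and in none of those 29. Rank 35698 lies past the end of the lists of hindlimb pools 748 and 758, which hold 32245 and 34360 summits. Both regions met a rule of at least 2 forelimb and no hindlimb lists, so their absence from hindlimb follows from that choice and is no test. Forelimb pool 748 listed no region of Tbx5 at all, so neither region met the rule of every forelimb library. A gene score was formed as the sum of rank scores over the regions of a gene. For Tbx5 it was 0, 0.3 and 1.02 in forelimb pools 748, 753 and 758 and 0, 0 and 0.0602 in hindlimb, a difference of 0.419 (SE 0.262, limma adjusted p = 1). The groups overlapped at 0 through pool 748.

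Tbx4 scored higher in hindlimb in each pool. Its gene score was 1.57, 1.54 and 2.98 in forelimb pools 748, 753 and 758 and 2.79, 3.48 and 5.17 in hindlimb. The highest forelimb value exceeded the lowest hindlimb value, so the groups overlapped, although every pool moved the same way. The mean difference, forelimb minus hindlimb, was -1.78 (SE 0.745, limma adjusted p = 1) and was the 11th lowest of 14886 genes. That place is by an unscaled sum, which can differ more in genes with many regions, such as Tbx4 with 32. Isl1, with 25 regions and an unadjusted limma p of 0.515, was the 323rd lowest. At the first start, a summit was listed in all 3 hindlimb pools, at rank 24368 in Tbx4 -0.1 for pool 748 and at ranks 15599 and 6043 in Tbx4 -0.3 for pools 753 and 758, but in forelimb only in pool 758 at rank 30271. When regions were drawn with a radius of 500 bp so that this start was not split, the mean rank score was 0 in forelimb and 0.489 in hindlimb (SE of the difference 0.154, limma adjusted p = 0.507).

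Tbx4 +103.8 was listed at ranks 19619, 16625 and 17340 in hindlimb. In forelimb pools 753 and 758 the summit fell in the neighbouring Tbx4 +103.5 at ranks 43609 and 36322, outside the 30000 used, and pool 748 had none. The mean rank score of Tbx4 +103.8 was 0.405 higher in hindlimb (difference -0.405, SE 0.0641, limma adjusted p = 0.14). With the radius of 500 bp the difference was the same, with SE 0.0609 and limma adjusted p = 0.125, and at that radius 1.31% of all regions were forelimb only and 1.35% hindlimb only. Tbx4 +39.0 was in all 6 lists, at ranks 31920, 37159 and 24921 in forelimb and 25294, 19743 and 15045 in hindlimb, higher in hindlimb within every pool. Other Tbx4 regions were high in the forelimb lists too. Tbx4 +31.6 stood at ranks 17972, 12885 and 3705 in forelimb and 7649, 10781 and 3350 in hindlimb. The Tbx4 upstream element, split between Tbx4 -10.3 and the region shown above, had a summit within 500 bp in all 32 lists, and in forelimb it ranked 9396, 5378 and 1384.

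Pitx1 followed Tbx4 in direction. Its gene score was 0, 0.533 and 1.42 in forelimb pools 748, 753 and 758 and 1.19, 0.984 and 2.72 in hindlimb, with a mean difference of -0.978 (SE 0.581, limma adjusted p = 1). Each pool was higher in hindlimb, but the values of the groups overlapped. The Pitx1 start was listed in all 3 hindlimb libraries, at ranks 21991 and 32106 in Pitx1 -0.2 for pools 748 and 753 and 17889 in Pitx1 +0.0 for pool 758, and in 1 forelimb library at rank 43148. The best-ranked distal region was listed by pool and not by limb. Pitx1 -92.3 ranked 16210 and 13111 in forelimb pools 753 and 758 and 15759 and 13575 in the same hindlimb pools, and was listed in neither library of pool 748. Pitx1 -132.0 was listed at ranks 33248 and 8677 in forelimb pools 753 and 758 and at 15556, 16200 and 9061 in the 3 hindlimb pools.

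Isl1 gave no clear difference between limbs, although each pool was higher in hindlimb, as for Tbx4 and Pitx1. Its gene score was 3.65, 3.65 and 1.42 in forelimb and 3.85, 4.23 and 2.35 in hindlimb pools 748, 753 and 758, a mean difference of -0.572 (SE 0.823, limma adjusted p = 1). The sign turned positive in whole lists (0.16) and when forelimb pool 758 was left out (0.17). The Isl1 promoter, Isl1 -0.0, ranked 2024, 7357 and 15178 in forelimb and 6930, 6660 and 7858 in hindlimb, with hindlimb values inside the forelimb range. Isl1 +4.8 in the gene body met the rule of all hindlimb and no forelimb libraries, at hindlimb ranks 17735, 26328 and 14511, but all 3 forelimb lists held the adjacent Isl1 +4.5 at ranks 25521, 32829 and 35444. With the radius of 500 bp both became the same region, with mean rank scores of 0.0498 in forelimb and 0.349 in hindlimb (SE of the difference 0.118, limma adjusted p = 0.723). Pool 758 had the lowest Isl1 score and the highest Tbx4 and Pitx1 scores of its limb in both limbs.

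An exact permutation test over the 6 libraries, ignoring the pools, gave two-sided p = 0.2 for Tbx4, 0.3 for Pitx1, 0.4 for Tbx5 and 0.5 for Isl1, where the smallest p that 3 libraries against 3 can give is 0.1. Paired by pool, an exact permutation test chosen after seeing the data gave p = 0.25 for Tbx4, Pitx1 and Isl1 and 0.5 for Tbx5. The smallest p that 3 pairs allow is 0.25. The share of all genes that moved the same way in all 3 pools was not counted.

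**Figure D2:**
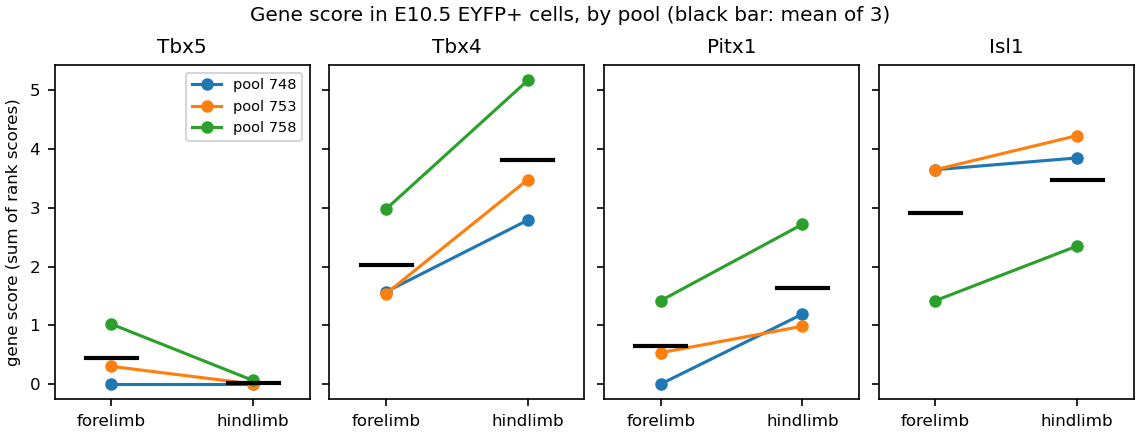
Gene score in the 30000 highest summits (vertical axis, sum of rank scores without unit) of Tbx5, Tbx4, Pitx1 and Isl1 in E10.5 FL EYFP+ and E10.5 HL EYFP+ libraries, with lines joining the libraries of a pool. Tbx4, Pitx1 and Isl1 are higher in hindlimb in all 3 pools, with values that overlap between the limbs, and black bars give the mean of the 3 libraries.

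At E10.25 the effect of Etv2 loss was examined in lists cut to 15000 summits, the length the shortest CKO list of 15626 allowed. Isl1 was lower in the knockout. Its gene score was 0.651, 0.726, 0.933, 0.884 and 0.926 in the 5 E10.25 CKO libraries and 1.54 and 2.03 in the 2 E10.25 WT libraries, with no overlap. The mean difference, CKO minus WT, was -0.959 (SE 0.144, limma adjusted p = 0.0271), where 1.53% of 12700 genes were called lower and 0.142% higher in CKO. The exact permutation test gave p = 0.0476, the smallest that these group sizes allow. The share of all genes without overlap between the groups was not counted. By limma 668 genes were higher and 1168 lower in CKO at an unadjusted p under 0.05. Of the 12 regions of the genes tested, 3 were listed in both WT and no CKO library, against 3.7% of all 20053 regions, and 0 the other way, against 0.997%. All 3 were at Isl1, namely Isl1 +108.0, Isl1 +12.1 and Isl1 +4.8, and in the whole lists 2, 2 and 1 of the 5 CKO libraries held them, and 4, 4 and 3 had a summit within 500 bp. With the radius of 500 bp the mean rank scores in CKO and WT were 0.0771 and 0.216 for Isl1 +108.0, 0 and 0.16 for Isl1 +12.1 and 0 and 0.161 for Isl1 +4.8 (limma adjusted p = 0.674, 0.433 and 0.129).

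Isl1 +15.7, downstream of the gene, was the region of the 4 genes that passed limma in this comparison, where 2.23% of regions were called lower and 0.379% higher in CKO. Its rank scores were 0, 0, 0.138, 0 and 0.107 in CKO and 0.476 and 0.522 in WT, without overlap, and the difference was -0.45 (SE 0.0629, limma adjusted p = 0.017). With the radius of 500 bp its limma adjusted p was 0.0137. The share of all regions without overlap was not counted. In whole lists 3 of 5 CKO libraries held it at relative ranks of 58.2%, 30.3% and 44.4%, against 18.1% and 21.1% in WT. Isl1 +15.7 was also in all 6 EYFP+ lists, all 14 of the overexpression experiment and 1 of 2 E10.5 CKO lists. At E10.5, in lists of 25000 summits, its mean rank score was 0.131 in HL EYFP+ and 0.182 in CKO. The difference, EYFP+ minus CKO, was -0.0517 (SE 0.166, limma adjusted p = 0.91), so no reduction was detected in that knockout group. The CKO mean came from 1 of its 2 libraries, and so few libraries cannot exclude a reduction. Cell population differed there as well as genotype. At E10.25 the Isl1 promoter overlapped between CKO and WT, at ranks 5241, 4107, 3079, 7523 and 2717 in CKO and 4153 and 3424 in WT.

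These calls depended on the libraries and on list length. For the gene score of Isl1 the adjusted p was 0.233 in whole lists and 0.347 in the 10000 highest summits, and it rose above 0.05 without either WT library (0.109 and 0.248) and without CKO library 1, 2, 4 or 5 (0.0718, 0.0589, 0.0505 and 0.0641). For Isl1 +15.7 it was 0.445 in whole lists, 0.0725 in the 10000 highest, 0.281 and 0.367 without WT library 1 or 2 and 0.0548 without CKO library 1. Each CKO library has a date of its own in the labels and the WT libraries share another, so date and genotype cannot be told apart.

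The other genes did not pass at E10.25. The Tbx4 score was 2.17, 0.513, 1.24, 2.06 and 1.5 in CKO and 0.356 and 0.813 in WT, overlapping, with a difference of 0.911 (SE 0.436, limma adjusted p = 0.411). It was the 51st highest difference of all genes, again by an unscaled sum that can differ more in genes with many regions. Pitx1 scored 0.357, 0, 0, 0.624 and 0.0981 in CKO and 0 in both WT libraries (limma adjusted p = 0.637). Tbx5 had a region in 1 of these 7 cut lists, CKO library 2, and was not tested. Pitx1 -92.3, listed in 22 of all 32 libraries, was in 1 of the 7 CKO lists (E10.25 and E10.5 together) and in both E10.25 WT lists. Tbx5 +124.4, by contrast, was in 4 of 5 E10.25 CKO lists, 1 of 2 E10.5 CKO lists and E9.5 HL, and in no other, and the other E10.5 CKO library had a summit within 500 bp. Both patterns were seen after the values were known and were not tested.

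**Figure D3:**
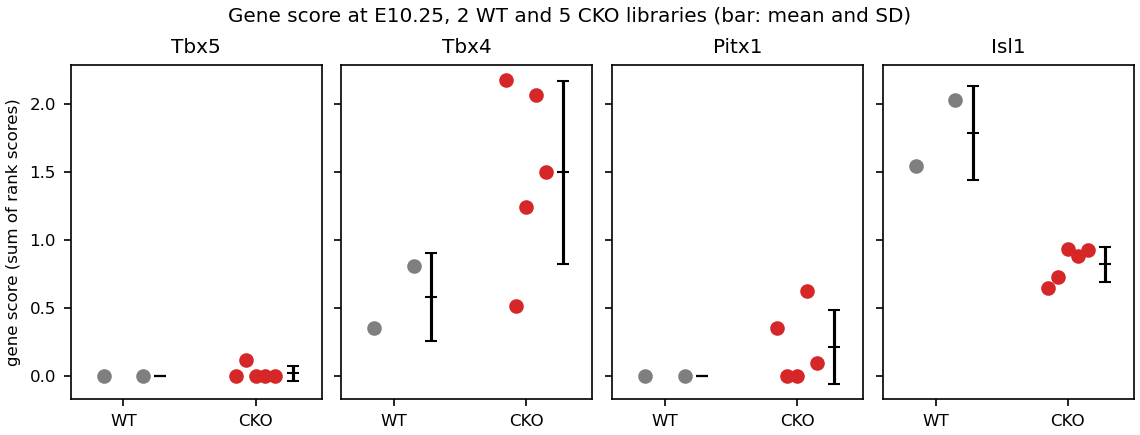
Gene scores in the 15000 highest summits (vertical axis, sum of rank scores without unit) in E10.25 CKO (5 libraries) and E10.25 WT (2 libraries), with each point a library and a bar for the mean and SD. For Isl1 the WT values of 1.54 and 2.03 lie above all CKO values, while for Tbx4 the groups overlap.

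At E10.5 the hindlimb EYFP+ cells were set against the CKO libraries in 25000 summits per list. The label of the CKO libraries names posterior hindlimb and no reporter, whereas the EYFP+ cells came from whole hindlimb buds, so cell population and genotype cannot be told apart. Of the 19 regions tested, 2 were listed in every EYFP+ and no CKO library, Tbx4 +31.6 and Isl1 +93.4, against 5.61% of all 30153 regions, and 0 the other way, against 8.29%. Tbx4 +31.6 had a mean rank score of 0.71 in EYFP+ and 0 in CKO (SE of the difference 0.107, limma adjusted p = 0.0399), where 1.4% of regions were called higher in EYFP+ and 3.39% in CKO. The CKO libraries had summits nearby, at rank 5761 in Tbx4 +31.1 and rank 12318 in Tbx4 +31.3, and at the radius of 500 bp the region at Tbx4 +31.1 was called higher in CKO (mean rank scores 0 and 0.638, limma adjusted p = 0.0385). The groups therefore differed in where the summit lay. The call was lost without HL EYFP+ library 1 or 2 (adjusted p = 0.103 and 0.0753), without either CKO library (0.404 and 0.368) and in the 10000 highest summits (0.604).

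Isl1 +93.4 had no such neighbour. It ranked 1878, 6443 and 18721 in E10.5 HL EYFP+ and had no summit within 500 bp in either E10.5 CKO list (mean rank scores 0.639 and 0, limma adjusted p = 0.226). Across the other groups, in whole lists, it was in 3 of 3 E10.5 FL EYFP+, 2 of 2 E10.25 WT, all 14 libraries of the overexpression experiment and 1 of 5 E10.25 CKO lists, and in none of E9.5 HL, E10.5 Posterior and E10.5 Anterior. In the 15000 highest summits no E10.25 list of either group held Isl1 +93.4. The gene scores did not pass, with means of 2.71 and 1.84 for Isl1 (limma adjusted p = 0.744), 2.96 and 2.73 for Tbx4 (0.949) and 1.21 and 0.745 for Pitx1 (0.805), in EYFP+ and CKO. By limma 0 of 13894 genes were called, with 792 higher in EYFP+ and 871 higher in CKO at an unadjusted p under 0.05.

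Among control hindlimbs of the overexpression experiment, anterior and posterior libraries differed in where summits lay downstream of Tbx4, in lists of 40000 summits. Of 38 regions tested 0 were listed in all 4 libraries of either part and none of the other, against 1.04% (anterior only) and 1.25% (posterior only) of 57146 regions. Tbx4 +31.6 had a mean rank score of 0.635 in anterior and 0.0477 in posterior libraries (SE of the difference 0.0974, limma adjusted p = 0.024), where 1.15% of regions were called higher in anterior and 1.32% in posterior (656 and 756 regions, or 43 and 51 with the embryo number as a block). It was in 4 of 4 anterior lists, at ranks 5320, 20510, 20820 and 11756, and in 1 of 4 posterior lists at rank 32363. All 4 posterior libraries held Tbx4 +30.7, at ranks 35781, 23105, 14768 and 24327, as did 1 anterior library (limma adjusted p = 0.403). With the embryo number as a block the adjusted p of Tbx4 +31.6 was 0.137, and it was 0.0565 to 0.0685 without posterior library 1, 2 or 4 or anterior library 4.

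Summits further out were also split between the parts. Tbx4 +103.5 was in 4 of 4 posterior and 1 of 4 anterior control lists and Tbx4 +103.8 in 0 of 4 posterior and 3 of 4 anterior lists, with every control library holding exactly 1 of them (limma adjusted p = 0.169 and 0.216). With the radius of 500 bp both became the same region. Its mean rank scores were 0.472 in anterior and 0.54 in posterior (SE of the difference 0.0586, limma adjusted p = 0.628). Tbx4 +23.9 was in 4 of 4 posterior and 0 of 4 anterior control lists and, in Etv2OE, in 3 of 3 posterior and 0 of 3 anterior lists. Its limma adjusted p in the controls was 0.322, with mean rank scores of 0.281 in posterior and 0 in anterior.

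**Figure D4:**
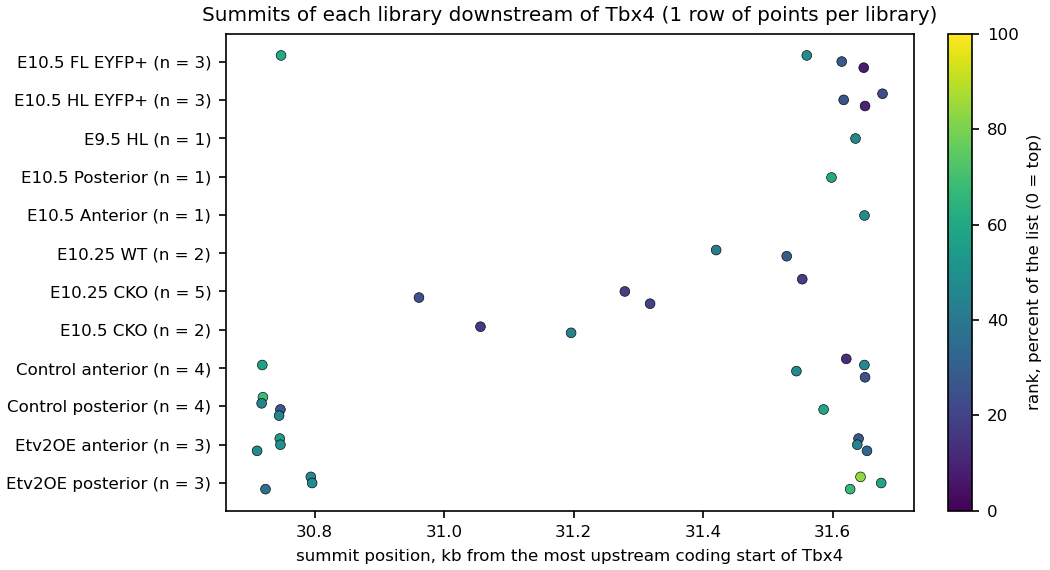
Summits downstream of Tbx4, by distance from the most upstream coding start in kb (horizontal axis) and group (vertical axis, a row of points per library), with colour for the rank as a percentage of the list (0 is the top). All 4 control anterior libraries have a summit near 31.6 kb, all 4 control posterior libraries have one near 30.7 kb, and both E10.5 CKO libraries lie between these positions.

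The gene score of Isl1 was 4.89, 4.04, 4.84 and 4.62 in anterior and 5.12, 5.28, 5.44 and 5.36 in posterior control libraries. All posterior values lay above all anterior values, and the difference was -0.703 (SE 0.242, limma adjusted p = 0.272). The share of all genes that separate in this way was not counted. In the same limma fit 937 genes were higher in anterior and 1088 in posterior at an unadjusted p under 0.05. With the embryo number as a block the limma adjusted p was 0.378, and an exact paired permutation test over the 4 embryos, a test chosen after seeing the data, with all 4 lower in anterior, gave p = 0.125, the smallest that 4 pairs allow. Ignoring the pairs, the exact permutation test gave p = 0.0286, the smallest for 4 libraries against 4. Posterior lists were longer, at 51265 to 54676 summits against 40945 to 45762 before cutting, and the part of this in the result was not tested. Tbx4 scored 4.28 in anterior and 5.09 in posterior libraries (limma adjusted p = 0.556), Pitx1 2.01 and 2.22 (0.899) and Tbx5 0.32 and 0.2 (0.833), all with overlapping values. Genes called over the whole genome were 0.176% higher in anterior and 0.359% higher in posterior (28 and 57 genes), and with the embryo block limma called 0 of either, with 960 and 1102 at an unadjusted p under 0.05.

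Overexpression of Etv2 moved none of the 4 genes past the test. The same control libraries served here and in the comparison of parts. In anterior tissue the gene score means of Etv2OE and control were 2.82 and 2.76 for Tbx4 (difference 0.0521, SE 0.32), 1.04 and 1.17 for Pitx1 (-0.13, SE 0.317), 3.34 and 3.36 for Isl1 (-0.0232, SE 0.277) and 0.0926 and 0.139 for Tbx5 (-0.0465, SE 0.0979). In posterior tissue they were 4.41 and 4.16 for Tbx4 (0.249, SE 0.506), 1.63 and 1.69 for Pitx1 (-0.0552, SE 0.208), 4.96 and 4.91 for Isl1 (0.049, SE 0.208) and 0.0152 and 0.13 for Tbx5 (-0.115, SE 0.114). Every one of these had a limma adjusted p of at least 0.893. By limma 0 genes were called in either part, with 435 higher and 503 lower in Etv2OE at an unadjusted p under 0.05 in anterior and 446 and 609 in posterior tissue. The effect did not differ detectably between the parts, with an adjusted p of 1 for the interaction in each gene.

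No region of the 4 genes passed limma under overexpression (27 tested in anterior and 33 in posterior tissue), where 0.0351% and 0.0402% of regions were called higher and lower in anterior and 0.0454% and 0.0432% in posterior tissue. Tbx4 +30.7 came nearest in anterior tissue. It was in 3 of 3 Etv2OE anterior lists, at ranks 20584, 16127 and 18070, and in 1 of 4 control anterior lists, with mean rank scores of 0.391 and 0.0465 (SE of the difference 0.067, limma adjusted p = 0.395). In anterior tissue 0 of the 27 regions were listed in every library of either genotype and none of the other, against 0.341% (Etv2OE only) and 0.399% (control only) of all regions. In posterior tissue 1 of 33 was Etv2OE only, Isl1 +94.9, and 0 were control only, against 0.402% and 0.456% of all regions, but 3 of 4 control posterior libraries held it in their whole lists. Pitx1 -27.7 was in 8 of 8 control lists and 3 of 3 Etv2OE posterior lists, in 0 of 3 Etv2OE anterior lists and in none of the 18 libraries outside this experiment. In anterior tissue its mean rank scores were 0 and 0.174 (limma adjusted p = 0.906).

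The 14 libraries of the overexpression experiment also shared regions that fewer of the other 18 listed. Isl1 -46.8 was in 14 of 14 and in 1 of 18, an E10.5 CKO library. Tbx5 +32.4 was in all 8 control lists, 1 Etv2OE anterior, 1 Etv2OE posterior and 1 E10.5 FL EYFP+ list. Isl1 -133.6 was in 14 of 14 and in 5 of 18, with 2 of 3 forelimb and 0 of 3 hindlimb EYFP+ lists. The experiment, the transgenic lines and the dissected tissue changed together and cannot be told apart.

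In the libraries without replicates, E9.5 HL listed 2 regions of Tbx5, 7 of Tbx4, 8 of Pitx1 and 11 of Isl1, and its Isl1 promoter was the strongest of the 32 in relative rank. E10.5 Posterior listed 0, 8, 7 and 9 and E10.5 Anterior 1, 3, 0 and 1 in the same order. Both Tbx4 promoter and Isl1 promoter were among the regions of E10.5 Anterior, whose list was the shortest.

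A list of 31 other genes of limb initiation and limb identity, such as Fgf10, Sall4, Hand2, Tbx3, the Hoxc cluster and Irx3, was tested alongside in the same fits. Between forelimb and hindlimb EYFP+, 0 of 29 tested passed limma, and 0 were higher in forelimb and 3 in hindlimb at an unadjusted p under 0.05, against 299 and 308 of all 14886 genes, with a median difference of -0.307 against -0.000239 over all genes. These were Hand2, a regulator of posterior limb identity, with mean scores of 3.1 in forelimb and 4.71 in hindlimb (adjusted p = 0.893), Hoxc11 with 0 and 0.48 (0.75) and Hoxc4 with 0.419 and 1.92 (1). At E10.25, 2 of 27 passed, both higher in CKO, where 0.142% of all genes were called higher and 1.53% lower in CKO. Tbx3, a T-box gene of limb patterning, scored 1 in CKO and 0.357 in WT (adjusted p = 0.0187), and Irx3, an Iroquois gene of the early limb, scored 1.08 and 0.0446 (adjusted p = 0.0361). The median difference of the list there was 0.308 against -0.00415 over all genes. With the replicate number as a block, limma called 0 of 12700 genes in either direction at E10.25. The WT group had 2 libraries, and date and genotype cannot be told apart for these genes either. Between hindlimb EYFP+ cells and the E10.5 knockout 0 of 28 passed, between anterior and posterior controls 0 of 29, and under overexpression 0 of 28 in anterior and 0 of 29 in posterior tissue.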

How the data were processed

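Per the labels and the study's methods, the authors mapped paired-end reads to mm10 (Bowtie2 2.2.4), discarded multimapping reads and PCR duplicates (Picard), corrected read starts for the transposase offset and ran MACS2 on each library. For MACS2, neither version nor options were found in the paper or labels used here. Each line of a deposited list holds a summit and a −log10 q-value, and q was at most 0.05 throughout. No read counts are held, so depth is unknown, and the values served only as ranks. The members and lists were chosen with earlier results of these data known. Sequences were read from the RefSeq copy of the GRCm38 (mm10) genome.

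Summits were merged greedily into regions of radius 250 bp, kept in at least 2 lists, and assigned to the nearest protein-coding start of GENCODE within 150 kb. Lists were cut to the largest multiple of 5000 that every compared list reached. The rank score was (cut + 1 - rank)/cut, or 0 without a summit. Region scores were tested with limma 3.58.1 in R 4.3.3 and gene scores with its trend option, with Benjamini-Hochberg adjustment over all features and a threshold of 0.05. Each fit used the compared groups only, and single gene scores were also tested by two-sided exact permutation. The scripts were tested on simulated data. The genes named were the 4 members. The regions named were promoters, the 2 best-ranked other regions of each gene, those in all libraries of 1 limb and none of the other, and those past limma, and others were chosen after their values were seen. Same-numbered forelimb and hindlimb libraries deviated together (correlations 0.222, 0.225 and 0.482), and the numbers are those of the labels. Anterior and posterior controls pair by embryo number, with correlations of 0.00156 to 0.0569. Alternatives were whole lists, the 10000 highest summits, a stricter −log10 q of 3, 200-bp intervals, a radius of 500 bp, a window of 100 kb, the replicate block and leaving out each library.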

Additional observations from a re-analysis of the deposited data

Results flagged for a closer look

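The gene score of Tbx5 in E10.25 CKO library 2 was 0.121, while the other 4 E10.25 CKO libraries had 0. The value stood apart from the other libraries of its group, and it came from the shortest list of that group, with 15626 summits. In all 20 groups of gene scores were tested in this way and 1 stood apart. The other values of that group do not vary, and the share expected by chance was not estimated.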

How the results depend on the processing

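List length and single libraries limit these results, since lists hold no depth and a summit just past the end of a cut list scores 0. Between the EYFP+ limbs, regions of the 4 genes listed in forelimb only numbered 1 in whole lists and at the stricter threshold, and 0 to 1 when a library was left out. Regions listed in hindlimb only numbered 0 in the 10000 highest summits, 1 in 200-bp intervals and 2 to 5 when a library was left out, with 4 without forelimb pool 758, 5 without hindlimb pool 748 and 4 without hindlimb pool 758. The Isl1 gene score difference, -0.572, turned to 0.16 in whole lists, 0.268 in the 10000 highest summits and 0.312 at the stricter threshold, and ran from -1.13 to 0.17 when a library was left out. The cause was not tested.

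For E10.25 CKO against WT, the number of regions lower in CKO was 0 in the 10000 highest summits and with the replicate block, and 0 to 1 when a library was left out. The number of the 4 genes lower in CKO was 0 in whole lists, in the 10000 highest summits, at the stricter threshold, in 200-bp intervals and with the replicate block, and 0 to 1 when a library was left out. For hindlimb EYFP+ against the E10.5 knockout, regions higher in EYFP+ numbered 0 in the 10000 highest summits and with the replicate block and 0 to 2 when a library was left out (2 without hindlimb pool 758), and regions higher in the knockout numbered 1 in 200-bp intervals and at the radius of 500 bp. For anterior against posterior controls, regions higher in anterior numbered 0 in whole lists, in the 10000 highest summits and with the replicate block, 2 in 200-bp intervals and 0 to 1 when a library was left out. Regions higher in posterior numbered 1 at the stricter threshold and 0 to 1 when a library was left out.

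With the pool as a block, limma gave adjusted p = 0.425 for Tbx4 and 0.436 for Pitx1 between the EYFP+ limbs, and no call changed there. For anterior and posterior controls, paired by embryo number, the block left Tbx4 +31.6 at 0.587 (adjusted p = 0.137). In both knockout comparisons the libraries share only a number. At E10.25 a block on it left the Isl1 gene score difference at -1.09 (adjusted p = 0.232), and at E10.5 that of Tbx4 +31.6 at 0.631 (adjusted p = 0.199). Of the summary results tried, 378 stayed on their side of the threshold with the same direction, 47 moved and 4 reversed.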

Other observations

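The promoters whose rank score over the 32 whole lists was most like that of a member, among 13585 promoters, were Letm2 (Spearman 0.69), Fam83d (0.68) and G3bp1 (0.67) for Tbx4. For Pitx1 they were Nr4a3 (0.77), Phtf2 (0.75) and Tmem60 (0.75), and for Isl1 Serpinb9 (0.78), Adat1 (0.74) and Zfp330 (0.74). Tbx5 had no promoter region to compare. These correlations are descriptions over libraries that share list length and experiment.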
